A study of Homo sapiens with 27 samples.

Results

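The mutant G protein of uveal melanoma (UM) acts on the cell through a few known proteins, and the genes described here encode a set of them. They are 6 genes of the protein kinase C family (PRKCA, PRKCB, PRKCD, PRKCE, PRKCH and PRKCZ) together with RASGRP3 and TRIO. The 8 genes were chosen by name, with earlier results of these data known, from the 61533 genes listed in the count table, and all 8 passed the filter on low counts in every comparison. RNA was sequenced from 92.1 cells, an established UM cell line with a mutated GNAQ, which were passaged in 100 nM VS-4718, an inhibitor of FAK (FAKi), or in DMSO alone. All groups carry the GNAQ mutation, and a single line was used, so the groups stand for a single tumor in culture. Cells in DMSO were sampled at day 0, and cells under either treatment were sampled at days 3, 7, 14 and 21, which gave 9 groups of 3 replicates and 27 libraries. The methods speak of plating in triplicate as well as of repeats of the whole experiment, and the labels do not say which of them a replicate number counts, so p-values measure the spread between these libraries, which may in part be technical.

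Protein kinase C (PKC) enzymes phosphorylate serine and threonine residues and are switched on at membranes. The conventional enzymes PKCα (PRKCA) and PKCβ (PRKCB) need calcium and diacylglycerol, which both rise when the active Gαq subunit turns on phospholipase C-β. The calcium-independent enzymes PKCδ (PRKCD), PKCε (PRKCE) and PKCη (PRKCH) need diacylglycerol alone, and the atypical enzyme PKCζ (PRKCZ) needs neither. RASGRP3 encodes an exchange factor that loads RAS with GTP, is itself recruited by diacylglycerol and phosphorylated by PKC, and is known in UM as the link from GNAQ to the ERK pathway. TRIO encodes a large exchange factor for small GTPases such as RAC1 that binds active Gαq directly and leads to FAK and YAP by a route that does not pass through phospholipase C-β.

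The promoters show how RASGRP3 differs from the other members at the start of the counted transcript. Windows of 300 bases, from 250 before to 50 after a gene's start, were read from RefSeq's table on GRCh38.p14. All 8 members had a window there, and RASGRP3 and PRKCZ had 4 and PRKCD had 3. The window nearest the start of the counted transcript was taken for each, and which start these cells use was not tested. The windows of PRKCA, PRKCB, PRKCD, PRKCE, PRKCH, PRKCZ and TRIO held between 28 and 52 CpG dinucleotides and were between 64.7% and 81.3% G or C, against a median of 14 CpGs and 58.7% over all 35116 windows. The window of RASGRP3 held 1 CpG and was 39.7% G or C, and only 3.96% of all windows held fewer CpGs. The 200 bases before the start of the counted transcript are shown for the members whose levels the results turn on, with each CpG in capitals. They lie at chr17:66302413-66302612 for PRKCA, chr2:33436124-33436323 for RASGRP3 and chr5:14143142-14143341 for TRIO, on the plus strand of hg38.
PRKCA: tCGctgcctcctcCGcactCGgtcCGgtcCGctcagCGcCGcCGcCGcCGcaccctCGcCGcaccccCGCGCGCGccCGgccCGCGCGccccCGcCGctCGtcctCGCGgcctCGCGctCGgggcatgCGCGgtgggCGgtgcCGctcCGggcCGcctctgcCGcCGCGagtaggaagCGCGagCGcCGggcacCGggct
RASGRP3: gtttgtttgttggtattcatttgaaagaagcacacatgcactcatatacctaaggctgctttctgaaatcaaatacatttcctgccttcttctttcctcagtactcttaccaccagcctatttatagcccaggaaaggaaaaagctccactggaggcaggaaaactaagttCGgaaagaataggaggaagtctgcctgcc
TRIO: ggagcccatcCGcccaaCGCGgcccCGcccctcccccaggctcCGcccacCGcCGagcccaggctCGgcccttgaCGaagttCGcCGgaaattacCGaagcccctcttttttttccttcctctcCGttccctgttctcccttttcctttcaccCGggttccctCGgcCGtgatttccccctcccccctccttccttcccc
Both strands of the 300-base windows were searched for 5 short motifs, counting matches that overlap. These were CATTCC (the core of a TEAD site), TGANTCA (AP-1), TGACGTCA (CRE), and the E-boxes CACGTG and CATGTG. The sole match in the windows taken for the members was 1 CATGTG in that of RASGRP3, a motif that 11.1% of all windows hold. The other motifs were found in 14.0% (CATTCC), 7.71% (TGANTCA), 7.26% (CACGTG) and 1.85% (TGACGTCA) of all windows.

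The libraries held between 12161994 and 43651551 counts, with a median of 24759579, and the members were counted at 133 (TRIO) to 11797 (RASGRP3) reads in a single library. The melanocyte identity of the cells was visible in every library, with 7 of 7 lineage markers at a mean of at least 1 CPM (counts scaled to the total of each library) and a summed level of 9438 to 14951 CPM. The 3 endothelial and 4 leukocyte markers were all under 1 CPM on average, with summed levels of at most 0.885 and 1.03 CPM. Of 5 fibroblast markers 2 reached 1 CPM (summed level 5.50 to 16.9 CPM, with COL1A2, COL3A1 and DCN below it), and of 4 epithelial markers KRT18 did, with a summed level of 7.33 to 49.9 CPM in DMSO and 4.66 to 18.4 CPM in FAKi. Several libraries stood apart from their labels' neighbors. FAKi day 7 replicate 1 was closer to FAKi day 14 replicate 1 than any 2 replicates of a group were to each other, with a root mean square difference of 0.215 in log2 CPM against 0.228 to 0.806 over the 27 pairs of replicates. DMSO day 3 replicate 1 was nearest to a library of DMSO day 0, and the other DMSO libraries of day 3 were nearest to DMSO day 21 replicate 3. DMSO day 21 replicate 3 was itself 0.721 and 0.767 from the other replicates of its group, which were 0.325 apart. The column header of this library writes its day with an extra 7 before the 21, and its sample title gives day 21. In all, 9 of 27 libraries were nearest to a library of another group. The share of counts on mitochondrial genes was 9.59% and 8.61% in DMSO day 3 replicates 2 and 3, 5.49%, 5.49% and 9.75% in the DMSO libraries of day 21 and 10.7% to 11.2% in the FAKi libraries of day 21, against at least 16.8% in the other 19 libraries. GNAQ itself was at 42.8 ± 1.18 CPM at day 0 (SD, n = 3), and PTK2, which encodes FAK, was at 159 ± 5.44 CPM. PTK2 had a mean FAKi effect of 0.04 on the log2 scale (SE 0.07, adjusted p = 0.786), and since VS-4718 acts on the FAK protein, this mRNA does not check the treatment.

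FAKi against DMSO asks how the level of each gene differs after the same number of days in culture. RASGRP3 was lower and PRKCA higher in FAKi at day 14, by factors of 0.663 and 1.43, and both differences passed the test across all genes. Averaged over the 4 days, RASGRP3 was lower and PRKCA and PRKCH were higher in FAKi. The remaining members did not pass the test at any day, although TRIO had the largest single difference, 2.16-fold at day 21, on libraries with a wide spread. In the fit without a block, 0 of 8 members met both thresholds used here at any day, which were a log2 fold change beyond 1 in size and an adjusted p no higher than 0.05. With the replicate number as a block, TRIO met them at day 21.

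By the quasi-likelihood test of edgeR, adjusted over all genes by Benjamini-Hochberg, 0 of 8 members met both thresholds at days 3, 7, 14 and 21, where 0.0%, 0.0269%, 1.66% and 5.28% of all tested genes did. By the adjusted p alone, the counts were 0, 0, 2 and 0 members on these days, against 0.0%, 0.0269%, 12.4% and 11.6% of all genes. Unadjusted p was under 0.05 for 2, 1, 3 and 2 members, where 23.8%, 8.77%, 24.6% and 32.6% of all genes had such a p, so that the members' counts lay close to those of any gene. With CPM scaled over the 6 libraries of a day, the treatments were fully apart for 1, 4, 4 and 2 members (TRIO at day 7 among them, which overlapped with the scaling over 27 libraries used below), against 31.1%, 16.8%, 29.0% and 35.4% of all genes. DESeq2 gave 0, 0, 0 and 1 members past both thresholds at these days, against 3.3%, 0.457%, 1.65% and 7.88% of all genes, and the single one was TRIO at day 21. The median log2 fold change of the 8 members was 0.26, -0.04, 0.12 and 0.19 at days 3, 7, 14 and 21, and that of all tested genes was -0.02, 0.01, -0.01 and 0.01.

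**Figure D1:**
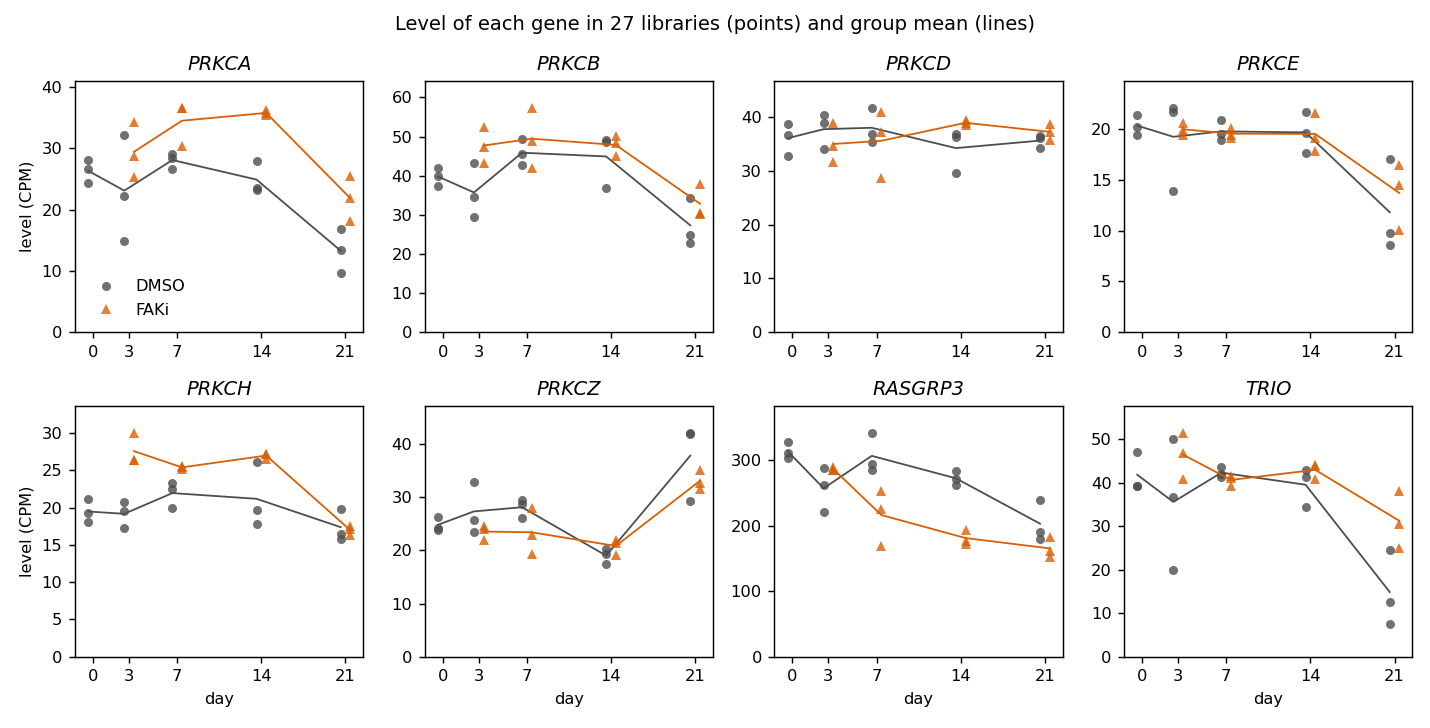
Level of each of the 8 genes in CPM (vertical axis, from 0) against the day (horizontal axis), with 1 point for each of the 27 libraries, circles for DMSO and triangles for FAKi, and lines through the means of 3 libraries. The FAKi points of PRKCA lie above the DMSO points at days 7, 14 and 21, those of RASGRP3 lie below the DMSO points at days 7 and 14, and PRKCD stays between 28.6 and 41.7 CPM throughout.

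PRKCA (ENSG00000154229.12, chromosome 17, 66302613 to 66810743) was at 24.3, 26.6 and 28.1 CPM in DMSO at day 0. At day 7 it was at 26.7, 28.4 and 29.2 CPM in DMSO and 36.6, 30.4 and 36.6 CPM in FAKi. At day 14 it was at 23.5, 23.2 and 28.0 CPM in DMSO and 35.4, 36.3 and 35.7 CPM in FAKi. The groups were apart on both days, at day 7 by 0.24 on the log2 scale without FAKi day 7 replicate 1 (adjusted p = 0.383), and at day 14 the 3 FAKi libraries lay within 1 CPM of each other. At day 21 the level was 13.4, 9.60 and 16.9 CPM in DMSO and 21.9, 18.2 and 25.4 CPM in FAKi, so both treatments were lower than before and again did not overlap. The log2 fold change was 0.29 at day 7 (SE 0.14, adjusted p = 0.589), 0.52 at day 14 (SE 0.12, adjusted p = 0.00589) and 0.76 at day 21 (SE 0.23, adjusted p = 0.0609). With all 27 libraries in a single fit, the difference at day 14 kept its size of 0.52 but did not pass, at an adjusted p of 0.115, and the difference at day 21 passed at 0.0132. DESeq2 gave an adjusted p of 0.0176 at day 21. Deviations from group means correlated between same-numbered libraries of day 21 at r = 0.443, 0.128 and 0.658, and the labels do not say why. Same-numbered libraries carry the same NGS tag in their column headers, and what it stands for is not stated. With the replicate number as a block the day 21 difference was 0.78 with an adjusted p of 0.00211. At day 3 the DMSO libraries were scattered over 32.2, 22.2 and 14.8 CPM and overlapped with FAKi at 34.3, 28.8 and 25.2 CPM. The mean effect over the 4 days was 0.48 (SE 0.11, adjusted p = 0.00381), and it passed the test with any single day left out.

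PRKCB (ENSG00000166501.14, chromosome 16, 23835983 to 24220611) encodes the other conventional enzyme. Before correction for length it had the highest mean CPM of the PKC members over the 27 libraries, and PRKCD had a slightly higher median raw count (905 against 900). At day 3 it was at 43.3, 34.4 and 29.4 CPM in DMSO and 43.2, 52.5 and 47.4 CPM in FAKi. The highest DMSO library met the lowest FAKi library there, and the difference of 0.43 (SE 0.18) had an adjusted p of 0.184. At day 14 the ranges of 36.9 to 49.1 CPM in DMSO and 44.9 to 50.2 CPM in FAKi overlapped. The mean FAKi effect was 0.23 (SE 0.09, adjusted p = 0.0736), with an interval of 2 SE from 0.05 to 0.40.

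Among the calcium-independent enzymes, PRKCD (ENSG00000163932.15, chromosome 3, 53161209 to 53192717) was the steadiest member. It lay between 28.6 and 41.7 CPM in all 27 libraries, and its group means ran from 34.2 ± 4.08 CPM in DMSO at day 14 to 38.9 ± 0.508 CPM in FAKi at day 14 (SD, n = 3). Its mean FAKi effect was 0.02 (SE 0.07, adjusted p = 0.896), with an interval of 2 SE from -0.12 to 0.16.

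PRKCE (ENSG00000171132.14, chromosome 2, 45651675 to 46187990) had effects of 0.07, -0.02, -0.02 and 0.26 at days 3, 7, 14 and 21, and none passed the test. At day 21 it was at 9.79, 8.58 and 17.1 CPM in DMSO and 10.1, 14.5 and 16.5 CPM in FAKi. The FAKi range lay within that of DMSO, and its mean effect was 0.07 (SE 0.11, adjusted p = 0.733) with an interval from -0.15 to 0.28.

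PRKCH (ENSG00000027075.17, chromosome 14, 61321579 to 61550976) had its widest gap between the treatments at day 3. At day 3 it was at 19.5, 20.8 and 17.2 CPM in DMSO and 26.3, 30.1 and 26.3 CPM in FAKi. At day 7 it was at 20.01, 23.3 and 22.5 CPM in DMSO and 25.2, 25.4 and 25.6 CPM in FAKi. On both days the treatments did not overlap, and at day 14 FAKi at 26.5 to 27.2 CPM lay just above DMSO at 26.1, 17.7 and 19.7 CPM. At day 21 DMSO at 16.5, 15.8 and 19.8 CPM enclosed FAKi at 16.3, 17.1 and 17.6 CPM. The log2 fold changes were 0.54 (SE 0.15, adjusted p = 0.104), 0.21 (SE 0.13, adjusted p = 0.691), 0.34 (SE 0.14, adjusted p = 0.127) and 0.01 (SE 0.15, adjusted p = 0.955), and that of day 7 was 0.21 also without FAKi day 7 replicate 1. The day 3 difference passed in DESeq2 (adjusted p = 0.0461) and in the joint fit of 27 libraries (0.0165). The difference of day 14 was 0.52 without DMSO day 14 replicate 1, with an adjusted p of 0.0125. Of its exon bases 11.3% are shared with ENSG00000258989 on the same strand. The mean effect of 0.27 (SE 0.07, adjusted p = 0.0133) passed the test, and without day 3 it was 0.18 with an adjusted p of 0.179. The change of the effect from day 3 to day 21 was -0.54 (SE 0.20), with an unadjusted p of 0.0192 by the quasi-likelihood model of edgeR and an adjusted p of 0.169.

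PRKCZ (ENSG00000067606.17, chromosome 1, 2050411 to 2185395), the atypical member, had a mean effect of -0.12 (SE 0.08, adjusted p = 0.284). At day 7 it was at 28.8, 26.1 and 29.4 CPM in DMSO and 19.4, 27.9 and 22.9 CPM in FAKi. The treatments overlapped there, and the difference of -0.27 (SE 0.16, adjusted p = 0.666) became -0.15 (adjusted p = 0.640) without FAKi day 7 replicate 1. Of the exon bases of its counted transcript 30.3% lie, in GENCODE 44, on the opposite strand to exons of FAAP20 and of a gene known by its identifier, ENSG00000271806, and whether the counting used strand is not stated, so part of its counts cannot be told apart from those of FAAP20.

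**Figure D2:**
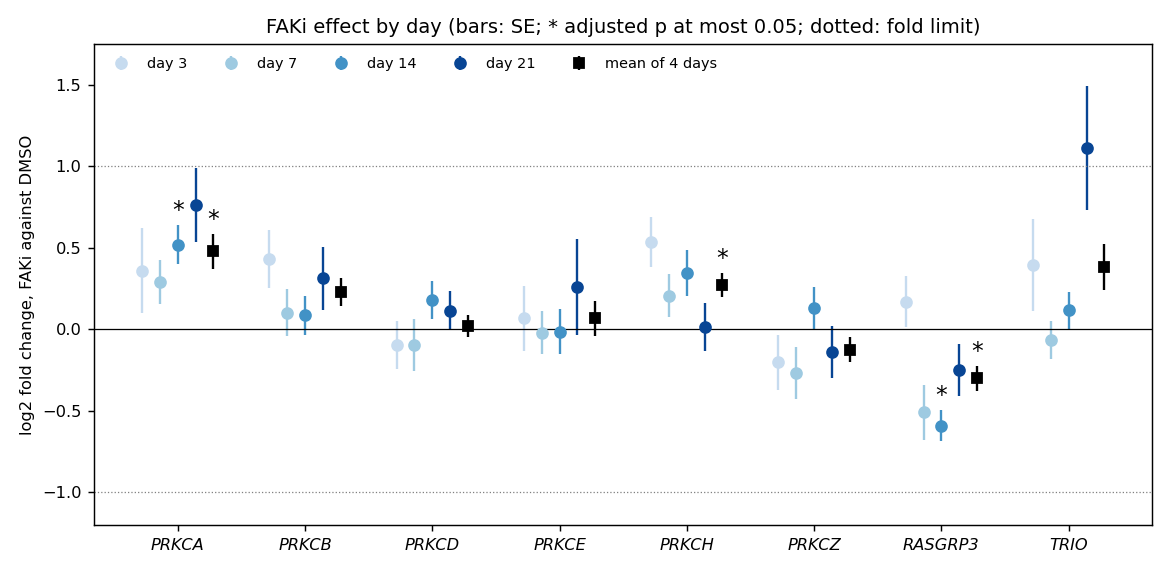
Log2 fold change of FAKi against DMSO (vertical axis) for each gene at days 3, 7, 14 and 21 (circles, 3 against 3 libraries) and for the mean of the 4 days (squares, 24 libraries), with bars for 1 SE, asterisks for an adjusted p of at most 0.05 and dotted lines at a log2 fold change of 1 and -1. Asterisks stand over PRKCA and RASGRP3 at day 14 and over the means of PRKCA, PRKCH and RASGRP3, and the widest bar belongs to TRIO at day 21.

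RASGRP3 (ENSG00000152689.18, chromosome 2, 33436324 to 33564750) was the most abundant member and the one that was lower in FAKi. It was at 328, 311 and 303 CPM in DMSO at day 0. At day 3 the levels were 263, 287 and 221 CPM in DMSO and 286, 284 and 289 CPM in FAKi. At that day the treatments overlapped, and the difference was 0.17 (SE 0.16, adjusted p = 0.521). At day 7 the levels were 342, 284 and 293 CPM in DMSO and 170, 225 and 254 CPM in FAKi. At day 14 they were 262, 271 and 283 CPM in DMSO and 173, 177 and 194 CPM in FAKi. All 3 FAKi libraries were below all 3 DMSO libraries on both days. At day 21 the level in DMSO had come down to 190, 179 and 240 CPM, and FAKi at 152, 162 and 183 CPM overlapped with it.

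The log2 fold change of RASGRP3 was -0.51 at day 7 (SE 0.17, adjusted p = 0.446), -0.59 at day 14 (SE 0.09, adjusted p = 0.000235) and -0.25 at day 21 (SE 0.16, adjusted p = 0.303). Without DMSO day 21 replicate 3 the day 21 value was -0.092 (adjusted p = 0.485). The day 14 difference passed the test with any one of the 6 libraries left out, with log2 fold changes from -0.64 to -0.56. Without FAKi day 7 replicate 1, the library that resembled one of day 14, the day 7 difference was -0.37 with an adjusted p of 0.108. The mean over the 4 days was -0.30 (SE 0.08, adjusted p = 0.00839), it was -0.26 with an adjusted p of 0.0108 without that library, and it was -0.21 with an adjusted p of 0.131 without day 14. At day 14 the mitochondrial share was 20.7%, 21.7% and 22.1% in FAKi and 22.0% and 26.7% in DMSO replicates 1 and 2, with DMSO replicate 3 above all of these, and its part in the difference was not tested. Exons of RASGRP3 overlap with FAM98A on the opposite strand over 17.2% of its exon bases in GENCODE 44. FAM98A was itself lower in FAKi at day 14, at 64.05 ± 3.67 against 102 ± 5.33 CPM in DMSO (SD, n = 3), with a log2 fold change of -0.68 and an adjusted p of 9.98e-05 by edgeR. In CPM the group means of FAM98A were 37.9 apart and those of RASGRP3 91.1 apart. Reads in the shared bases cannot be assigned to either gene without the strand setting.

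TRIO (ENSG00000038382.21, chromosome 5, 14143342 to 14510204) was at 39.2, 39.3 and 47.1 CPM in DMSO at day 0. It was at 41.3, 42.0 and 43.7 CPM in DMSO and 39.4, 41.1 and 41.5 CPM in FAKi at day 7, and at day 14 the ranges were 34.5 to 43.0 and 40.8 to 44.2 CPM. The treatments overlapped on both days. At day 21 DMSO was at 12.6, 7.55 and 24.5 CPM and FAKi at 25.0, 30.6 and 38.2 CPM. The FAKi libraries lay above the DMSO libraries there, the closest by under 1 CPM. The log2 fold change was 1.11 (SE 0.38) with an adjusted p of 0.0875, and with the replicate number as a block it was 1.22 with an adjusted p of 0.00219, which met both thresholds. Under this block 8.94% of all genes did. Without DMSO day 21 replicate 3 the difference was 1.68 with an adjusted p of 5.72e-07, and without any one of the other 5 libraries its adjusted p was between 0.136 and 0.272. Without that same DMSO library PRKCA (0.98), PRKCB (0.54), PRKCE (0.65) and PRKCZ (-0.28) also passed by the adjusted p alone at day 21, so that 5 of 8 members did, against 48.5% of all genes. The mean effect of TRIO over the 4 days was 0.38 (SE 0.14, adjusted p = 0.0645), and it passed in DESeq2 (adjusted p = 0.0379). The change of the FAKi effect on TRIO from day 3 to day 21 was 0.70 (SE 0.53, adjusted p = 0.513). At day 3 the DMSO libraries ran from 19.9 to 50.2 CPM and overlapped with FAKi at 40.9 to 51.5 CPM.

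The level of TRIO moved with the mitochondrial share of the libraries. In the 8 libraries with a share under 15%, TRIO was between 7.55 and 38.2 CPM with a median of 24.8 CPM, and in the other 19 it was between 34.5 and 51.5 CPM with a median of 41.5 CPM. PRKCA was between 9.60 and 25.4 CPM in those 8 and between 23.2 and 36.6 CPM in the others, and PRKCB was between 22.7 and 37.9 CPM and between 36.9 and 57.3 CPM. At day 21 the DMSO library with the highest share, replicate 3 at 9.75%, had 24.5 CPM of TRIO. FAKi replicates 1 and 2, both at 10.7%, had 25.0 and 30.6 CPM, and FAKi replicate 3 at 11.2% had 38.2 CPM. DMSO day 3 replicate 2 at 9.59% had 36.8 CPM, and DMSO day 3 replicate 3 at 8.61% had 19.9 CPM. Apart from these libraries of day 3, the 8 libraries with a share under 15% were all of day 21, so that share and day largely coincide. In the 8 libraries and in the others, the medians were 186 and 283 CPM for RASGRP3, 17.2 and 25.2 for PRKCH, and 14.2 and 19.6 for PRKCE. PRKCZ went the other way, with medians of 32.7 and 23.8 CPM, and the ranges of these genes overlapped. PRKCD, at 34.1 to 38.8 CPM and 28.6 to 41.7 CPM, showed no split by mitochondrial share. The part of the mitochondrial share in these differences was not tested, and in bulk libraries a change in the cells' makeup and a change of RNA per cell cannot be told apart.

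**Figure D3:**
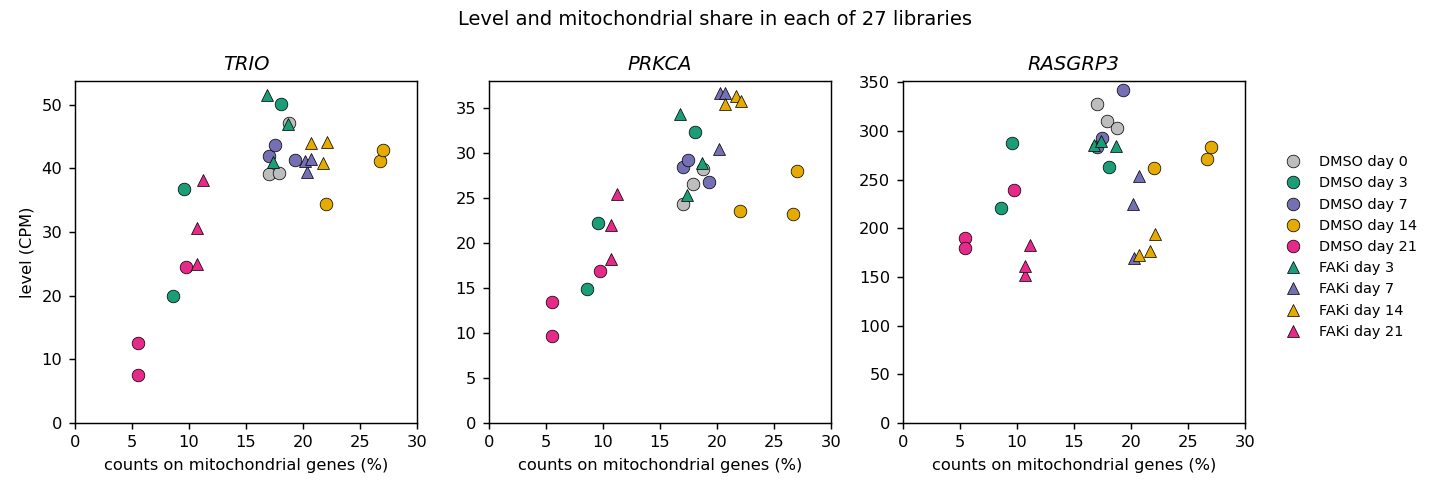
Level of TRIO, PRKCA and RASGRP3 in CPM (vertical axes, from 0) against the percentage of counts on mitochondrial genes (horizontal axes) in each of the 27 libraries, with circles for DMSO, triangles for FAKi and a color for each day. The DMSO libraries of day 21 at 5.49% hold the lowest TRIO and PRKCA levels, and the FAKi libraries of day 14 hold low RASGRP3 levels at shares of 20.7% to 22.1%.

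The scatter of DMSO at day 3 also decided the day 3 comparison. Without DMSO day 3 replicate 1, which resembled day 0, the differences at day 3 were 0.69 for PRKCA, 0.60 for PRKCB, 0.56 for PRKCH and 0.74 for TRIO, with adjusted p-values from edgeR of 0.0162, 0.0102, 0.0189 and 0.0196. These 4 of 8 members passed the test by the adjusted p alone, where 32.7% of all genes did, and 0 of them had a log2 fold change over 1. RASGRP3 stayed at 0.20 with an adjusted p of 0.331. The DMSO libraries left in this fit, replicates 2 and 3, had mitochondrial shares of 9.59% and 8.61%. Replicate 1 had 18.1%, and the FAKi libraries of day 3 had 16.8% to 18.7%. The part of this share in the day 3 differences was not tested. Without DMSO day 3 replicate 3, in contrast, the same 4 differences were 0.12, 0.30, 0.46 and 0.10, that of RASGRP3 was 0.07, and none passed.

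Over the 4 days, 0 of 8 members met both thresholds in the mean FAKi effect, against 1.89% of all genes, and 3 (PRKCA, PRKCH and RASGRP3) passed by the adjusted p alone, against 15.7%. DESeq2 gave 0 members past both thresholds, against 1.91% of all genes. The median of the members was 0.15 and that of all genes 0.01. The change of the effect between day 3 and day 21 passed for 0 of 8 members in edgeR, by both thresholds (2.22% of all genes) and by the adjusted p alone (2.93%), and for 0 in DESeq2 (4.37% of all genes past both thresholds), and 1 had an unadjusted p under 0.05. An F test of any change across the 4 days, added after the data were seen, passed for 0 members, against 10.3% of all genes, and 2 had an unadjusted p under 0.05. RASGRP3 had an adjusted p of 0.0560 in edgeR and of 0.0343 to 0.0486 under 4 other settings of edgeR. In DESeq2's likelihood ratio test its adjusted p was 0.00562. It was the single member that passed in DESeq2, where 18.7% of all genes did. In edgeR it did not pass with upper quartile scaling (0.0506), the replicate block (0.0701) or no count filter (0.0838).

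Most of these genes also differed between the start and the end of control culture. DMSO at day 21 shares its libraries with the FAKi comparison of that day, and its values are therefore set beside those above and not counted with them. Against DMSO at day 0, TRIO fell to 0.355 of its level (log2 fold change -1.49, SE 0.36, adjusted p = 0.0117), PRKCA to 0.504 (-0.99, SE 0.20, adjusted p = 0.00663), PRKCE to 0.579 (-0.79, SE 0.25, adjusted p = 0.0326), RASGRP3 to 0.645 (-0.63, SE 0.15, adjusted p = 0.0105) and PRKCB to 0.683 (-0.55, SE 0.17, adjusted p = 0.0326). PRKCZ rose by a factor of 1.52 (0.60, SE 0.17, adjusted p = 0.0194). PRKCD and PRKCH did not pass, at -0.02 (SE 0.12) and -0.17 (SE 0.15). So 6 of 8 members passed by the adjusted p alone, where 44.9% of all genes did, and TRIO was the single member past both thresholds, where 23.3% did. Without DMSO day 0 replicate 3 the adjusted p of TRIO was 0.0517 at a log2 fold change of -1.41, and without DMSO day 21 replicate 3 PRKCA (-1.18) and PRKCE (-1.15) also met both thresholds, which 36.9% of all genes then did. PRKCB, PRKCE and PRKCZ did not pass with any one of the day 0 libraries, or with replicate 1 or 2 of day 21, left out, at adjusted p-values between 0.0560 and 0.112. RASGRP3 had an adjusted p of 0.0510 without DMSO day 0 replicate 1. The day is confounded with passage, and the low mitochondrial shares of DMSO at day 21 are those given above.

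Within DMSO the group means of TRIO, PRKCA, PRKCB, PRKCE and RASGRP3 were lowest at day 21. Across all 5 days in DMSO the level of 6 of 8 members varied in the F test, against 49.9% of all genes, and PRKCD (adjusted p = 0.862) and PRKCH (adjusted p = 0.402) did not pass. On days 0, 3, 7 and 14 TRIO was at 41.8 ± 4.53, 35.6 ± 15.2, 42.3 ± 1.23 and 39.6 ± 4.50 CPM, and it was at 14.9 ± 8.73 CPM on day 21 (SD, n = 3). DMSO day 3 replicate 3, at 19.9 CPM of TRIO and 14.8 CPM of PRKCA, was below DMSO day 21 replicate 3 at 24.5 and 16.9 CPM. PRKCZ was lowest at day 14 in DMSO, at 19.4, 20.2 and 17.5 CPM, and highest at day 21, at 42.1, 41.9 and 29.3 CPM. FAAP20, which overlaps with PRKCZ on the other strand, went from 31.2 ± 3.68 CPM at day 0 to 82.8 ± 32.0 CPM at day 21 in DMSO (SD, n = 3), a log2 fold change of 1.40 with an adjusted p of 0.00635 by edgeR. The group means of FAAP20 were 51.6 CPM apart, where those of PRKCZ were 24.8 and 37.8 CPM. RASGRP3 was at 257 ± 33.6, 306 ± 31.1, 272 ± 10.6 and 203 ± 32.3 CPM at days 3, 7, 14 and 21, and FAM98A was at 89.6 ± 5.79 CPM at day 0 and 55.5 ± 9.93 CPM at day 21 (SD, n = 3). Without DMSO day 21 replicate 1, and likewise without replicate 2, only 2 members passed the F test. PRKCE, with an adjusted p of 0.0419 on all libraries, was above 0.05 without most of the single libraries.

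Levels of different genes were compared per kb of the counted transcript. RASGRP3 stood first at 52.0 ± 12.1 CPM per kb (SD over 27 libraries), followed by PRKCD at 13.1 ± 1.15, PRKCZ at 11.2 ± 2.73, PRKCH at 5.90 ± 1.14, PRKCB at 5.17 ± 1.09, TRIO at 3.29 ± 0.949, PRKCE at 3.18 ± 0.653 and PRKCA at 2.95 ± 0.825 CPM per kb. RASGRP3 was above PRKCD, PRKCZ above PRKCH, and PRKCB above TRIO in 27 of 27 libraries. The neighbors TRIO and PRKCE (17 of 27 libraries) and PRKCE and PRKCA (19 of 27) lay within their spread. The order was the same with RLE scaling, and the level of PRKCZ has the limit of its overlap with FAAP20 given above.

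**Figure D4:**
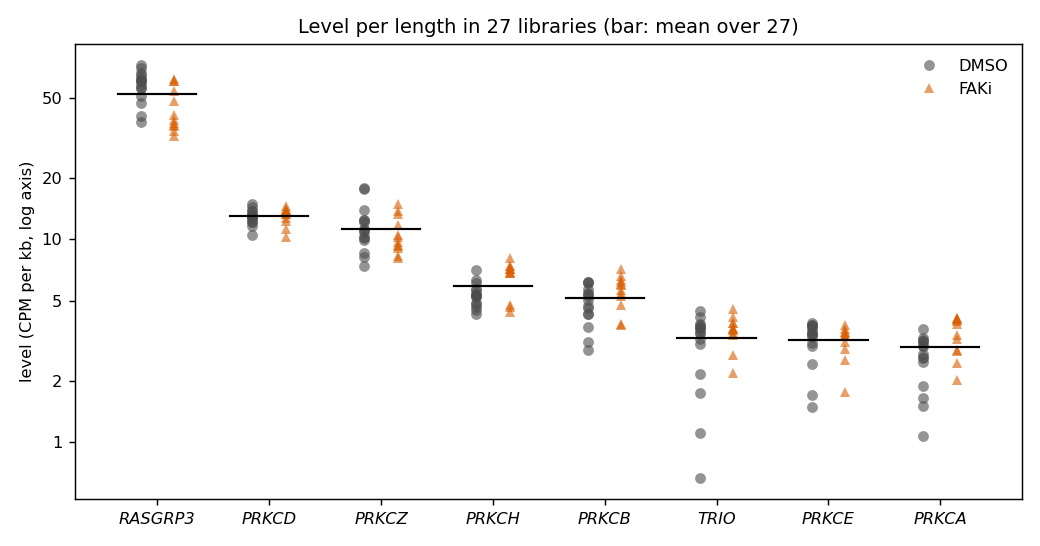
Level per length in CPM per kb on a log axis (vertical) for the 8 genes in order of their mean (horizontal), with a circle for each of 15 DMSO and a triangle for each of 12 FAKi libraries and a bar at the mean of all 27. RASGRP3 lies above every other gene in all libraries, and TRIO, PRKCE and PRKCA overlap at the low end.

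The summed level of 8 PKC genes, the 6 members with PRKCI and PRKCQ, was between 44.2 and 51.3 CPM per kb in the 9 groups. PRKCD and PRKCZ held the largest shares of it at day 0, with 27.4 ± 1.96% and 22.5 ± 1.23% (SD, n = 3). PRKCI, the second atypical gene, held 12.6 ± 0.854%, PRKCH 11.2 ± 1.06%, PRKCB 10.6 ± 0.751%, PRKCE 7.58 ± 0.337% and PRKCA 6.28 ± 0.371%. PRKCQ, a calcium-independent enzyme best known from T cells, held 1.76 ± 0.304%. At day 21 the share of PRKCA was 3.34 ± 0.883% in DMSO and 5.49 ± 0.795% in FAKi, that of PRKCZ 36.2 ± 7.19% and 31.6 ± 2.38%, and that of PRKCI 6.91 ± 1.38% and 6.28 ± 0.473%. At day 14 the share of PRKCA was 6.32 ± 0.827% in DMSO and 8.10 ± 0.116% in FAKi. These shares were not tested, and part of the counts of PRKCZ cannot be told apart from those of FAAP20, as given above.

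**Figure D5:**
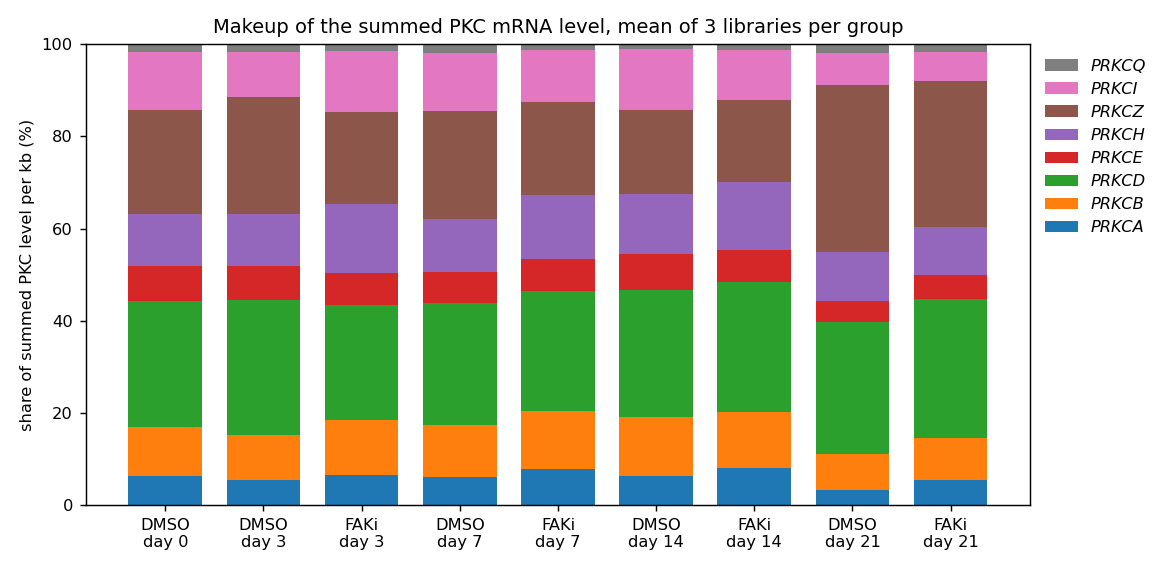
Share of each of 8 PKC genes in their summed level per kb (vertical axis, percent) in each of the 9 groups (horizontal axis, mean of 3 libraries per group). PRKCD holds about the same share in all groups, between 24.95% and 29.95%, and the share of PRKCZ at day 21, 36.2% in DMSO and 31.6% in FAKi, is the largest in the plot.

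Across the 27 libraries the members fell into those that went together and those that did not, as a description of libraries that share days, treatments and mitochondrial shares. Pearson's r of log2 CPM was 0.90 between TRIO and PRKCA, 0.89 between TRIO and PRKCE, 0.85 between TRIO and PRKCB and 0.86 between PRKCA and PRKCB. PRKCZ went the other way, with r of -0.73 to PRKCA, -0.73 to TRIO and -0.76 to PRKCE. RASGRP3 had r of 0.60 with PRKCE and 0.20 with PRKCA, and PRKCD had r between -0.28 and 0.17 with all other members. Among 16981 genes with a mean of at least 1 CPM, RASGRP3 was most like FMN1 (r = 0.97), OPA1 (0.94) and MTSS1 (0.94), and PRKCA was most like DVL3 (0.95), NUP214 (0.94) and KIRREL1 (0.94). PRKCB was most like TNRC6A (0.97), EPHA5 (0.95) and CDC42BPA (0.95), PRKCH like SLC44A1 (0.90), PLS3 (0.90) and CENPL (0.88), and PRKCZ like PEMT (0.96), PPP1R35 (0.95) and C19orf48 (0.95). PRKCE was most like LRRC37A16P (0.95), ENSG00000213985 (0.94) and LRP12 (0.94), and TRIO like ENSG00000261732 (0.99), ENSG00000273217 (0.98) and ENSG00000246596 (0.98). PRKCD, which varied least, had the weakest partners in PIAS4 (0.77), CDK16 (0.75) and RNPS1P1 (0.71).

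Other genes of the pathway were followed by lists. Upstream of the members, 2 of 9 tested genes for receptors, G proteins and phospholipase C-β passed by the adjusted p alone in the mean FAKi effect, 1 in each direction, where 15.7% of all genes did. EDNRB, the endothelin B receptor of melanocytes, rose by 0.66 (SE 0.09, adjusted p = 1.07e-05). It was at 63.5 ± 16.2 CPM in DMSO and 131 ± 13.4 CPM in FAKi at day 3 (SD, n = 3). At day 21 it was at 55.7 ± 7.70 and 89.99 ± 7.98 CPM (SD, n = 3). The log2 fold changes of EDNRB were 1.06, 0.68, 0.17 and 0.74 at days 3, 7, 14 and 21. By the adjusted p, that of day 21 passed (0.0214), and those of days 3, 7 and 14 did not (0.0945, 0.287 and 0.311). In DMSO its mean at day 14 was above the FAKi means of days 3, 7 and 21. PLCB2, a phospholipase C-β, fell by 0.30 (SE 0.08, adjusted p = 0.0107). PLCB4, which is itself mutated in some UM and is named like PLCB2 after its values were seen, had a log2 fold change of -0.66 (SE 0.18, adjusted p = 0.0183) at day 14 and 0.70 (SE 0.18, adjusted p = 0.0431) at day 21. The median of this list in the mean effect was 0.06.

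Beside RASGRP3, 1 of 7 other RAS activators passed by the adjusted p alone in the mean effect, where 15.7% of all genes did. Both thresholds were met by 1.89% of all genes. RASGRP2, its relative in platelets, met both thresholds at -2.05 (SE 0.54, adjusted p = 0.0112), at levels of at most 0.788 ± 0.648 CPM in any group (SD, n = 3), where few reads stand behind the value. SOS1, the exchange factor recruited by receptor tyrosine kinases and named after its values were seen, had -0.70 at day 14 (SE 0.12, adjusted p = 0.000419). Of the RAS-ERK cascade 1 of 10 genes passed by the adjusted p alone, against the same 15.7% of all genes. This was MAP2K2 (MEK2), which fell by 0.37 (SE 0.08, adjusted p = 0.00398). MAP2K2 was at 445 ± 121 CPM in DMSO and 243 ± 30.4 CPM in FAKi at day 21 and at 157 ± 4.69 and 181 ± 14.4 CPM at day 14 (SD, n = 3), and its FAKi effect changed across the 4 days in the F test (adjusted p = 0.0294 by edgeR). The medians of these lists were 0.08 and -0.01.

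Of 15 scaffolds, substrates and regulators of PKC, 7 passed by the adjusted p alone in the mean effect, where 15.7% of all genes did, 1 higher and 6 lower, with a list median of -0.09. PARD6A, which binds the atypical enzymes in the polarity complex, met both thresholds at day 21 at -1.70 (SE 0.39, adjusted p = 0.0315), with 3.38 ± 0.929 CPM in DMSO and 1.03 ± 0.471 CPM in FAKi (SD, n = 3). The higher gene was PHLPP1, a phosphatase that acts on PKC and is named after its values were seen, at 0.46 (SE 0.08, adjusted p = 0.000465). Named after their values were seen, the lower genes included RACK1, a scaffold of active PKC, at -0.41 (SE 0.10), and the PKC substrates MARCKS at -0.29 (SE 0.08) and MARCKSL1 at -0.33 (SE 0.07). Of the marker lists, DCT was higher at day 21 (1.19, SE 0.25, adjusted p = 0.0253), and KRT18 (-1.82, SE 0.19, adjusted p = 0.00379) and LUM (-1.15, SE 0.31, adjusted p = 0.0487) were lower, at the same day as the differences of TRIO and PRKCA, and their part in these was not tested.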

How the data were processed

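The authors trimmed reads with Trim Galore, checked them with FastQC 0.11.8, aligned them to hg38 with STAR 2.5.3a and counted exon reads of 1 transcript per gene on GENCODE 39 with HOMER. The deposited values are raw counts, whole numbers without normalization. The kit keeps strand, and the strand setting and the treatment of multi-mapped reads are not given in the sources used here. All 27 columns were matched to a sample by label, with 0 left over. The column header of DMSO day 21 replicate 3 was irregular, with an extra 7 before the 21, and the sample title gives day 21.

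Genes with fewer than 20 counts over the libraries of a comparison were dropped. The quasi-likelihood test of edgeR 4.0.16 (R 4.3.3, TMM, estimateDisp, the earlier glmQLFit method) was adjusted with Benjamini-Hochberg over all genes. Daily comparisons fitted 6 libraries, the mean effect 24, the change from day 3 to day 21 12 and DMSO across days 15. DESeq2 1.42.0, which the study's methods name, was run as an alternative, with the scaling, filter, leave-one-out and block alternatives of the closing section. Levels are CPM after TMM scaling over 27 libraries, and the length in kb is that of the table. Pearson's r used log2 CPM with a prior count of 2. The code was checked on simulated counts. Tables and plots used Python 3.11.15, pandas 2.3.3 and matplotlib 3.10.9.

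Deviations from group means correlated between same-numbered DMSO and FAKi libraries at day 21 (r = 0.443, 0.128 and 0.658), the labels not saying why, and at the other days r was between -0.144 and 0.107. In all columns the header carries an NGS tag equal to the replicate number, whose meaning is not stated. The members and lists were chosen with earlier results of these data known, and some listed genes, with the counts of their lists, are not reported here. Beside the members, the genes named by rule are those of a list called at any day or else the gene with the smallest p in the mean effect. Also named are the 3 most alike genes of each member, GNAQ and PTK2 as checks, genes that overlap a member, and fibroblast markers below 1 CPM. PRKCI and PRKCQ were named as parts of the summed PKC level. PLCB2, PLCB4, SOS1, PHLPP1, RACK1, MARCKS and MARCKSL1 fall outside the rule and were named after their values were seen.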

Additional observations from a re-analysis of the deposited data

How the results depend on the processing

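Of 1256 values of single members under the alternatives, 1199 kept their direction and their side of the threshold used, 18 no longer passed, 18 passed only under the alternative and 21 changed sign. For fold changes that threshold was both limits together, which few members met, so this count says little about the adjusted p alone. By edgeR, PRKCA at day 14 went from an adjusted p of 0.00589 to 0.115 with all 27 libraries and is counted as kept. So is PRKCA at day 3, which went from 0.413 to 0.0162 without DMSO day 3 replicate 1. By the adjusted p alone, RASGRP3 at day 14 passed under every alternative run, and PRKCA at day 14 did so except with all 27 libraries in a single fit. At day 21 the count past both thresholds was 1 in place of 0 with all 27 libraries, with DESeq2, with no count filter and with the replicate block, and 0 to 1 with a library left out. The adjusted p alone gave 2 members at day 14, 3 in the mean effect and 6 in DMSO day 21 against day 0. In the last comparison DESeq2, RLE scaling, upper quartile scaling and the replicate block gave 2 members in place of 1 (PRKCA beside TRIO), and leaving out a library gave 0 to 3. The 5-day F test in DMSO gave 2 to 6 members with a library left out. The F test of the FAKi effect across the 4 days gave 1 member in place of 0 with all 27 libraries, DESeq2, filterByExpr, the newer quasi-likelihood method and RLE scaling (RASGRP3) and with no count filter (TRIO). Without length, the order by level after RASGRP3 was PRKCB (2), TRIO (3), PRKCD (4), PRKCZ (5), PRKCA (6), PRKCH (7) and PRKCE (8). The cause of these changes was not tested. The newer method, the 4-day F test, the means of 3 days and the fit without FAKi day 7 replicate 1 were chosen after seeing the data.

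The log2 fold changes that changed sign were small. Leaving out a library gave -0.12 to 0.17 for PRKCE at day 3, -0.053 to 0.020 for PRKCE, -0.010 to 0.20 for PRKCB and -0.21 to 0.042 for PRKCD at day 7, -0.038 to 0.15 for PRKCB and -0.094 to 0.062 for PRKCE at day 14, and -0.044 to 0.14 for PRKCH at day 21. It gave -0.0099 to 0.056 for PRKCD in the mean effect, -0.28 to 0.12 for PRKCB and -0.11 to 0.17 for PRKCZ in the change from day 3 to day 21, and -0.090 to 0.025 for PRKCD in DMSO day 21 against day 0. PRKCH at day 21 was -0.033 with all 27 libraries, PRKCD in DMSO was 0.0022 with no count filter, and the mean effect of PRKCD was -0.043 without day 14 and -0.0060 without day 21. The replicate block changed the call of TRIO at day 21 and that of PRKCA in DMSO day 21 against day 0, by the adjusted p alone that of PRKCA at day 21, in the 5-day F test that of PRKCE (adjusted p = 0.0665), and no other call. In the main fits of 3 against 3 libraries, PRKCB and TRIO did not pass by the adjusted p at any day. TRIO passed at day 21 with the replicate block, DESeq2, no count filter and all 27 libraries, and both genes passed with some single libraries left out. The part of the day 3 and day 21 libraries that stood apart was not tested.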
